A study of Rattus norvegicus with 9 samples.

Results

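The brains of rats with 1 deleted copy of Lrap were compared with those of wild-type rats. Of 9 libraries in the series, 6 enter this comparison, 3 heterozygous and 3 wild type, and the 3 homozygous libraries are given beside them. RNA came from the whole brain of untreated, alcohol-naive male rats. The wild types were Wistar rats from Charles River, and the mutants carry the allele Crl:WI-Lrapem1Geh, made with CRISPR/Cas9 by taking out 618 bp. The sources used here do not call the wild types littermates, and therefore genotype and breeding line cannot be told apart. Each rat gave 1 library, and the labels number the rats. Genes are the loci of the authors' merged assembly that share a strand with an annotated gene and carry its gene_name. There are 21967 such loci among 114601, and 16576 passed the filter on low counts and were tested.

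Lrap is a long non-coding RNA of the rat brain that was found through its link with voluntary alcohol drinking. Long non-coding RNAs act as RNA, and some act on the expression of genes beside their own locus or on the splicing of other transcripts. A heterozygote keeps 1 intact allele, so its transcript can be made from that copy alone.

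The Lrap transcript taken to hold the deleted bases was lower in each heterozygous brain. Lrap is locus MSTRG.24458, at 39008385 to 39023973 of chromosome 12 (rn6, minus). In CPM, counts scaled to library size by TMM, its isoform MSTRG.24458.2 measured 2.54, 1.87 and 2.41 in the wild-type rats, numbered 1 to 3. Heterozygous rats 1 to 3 had 0.996, 1.04 and 1.11 CPM. The heterozygous rats lay close together, below every wild type, and above the homozygous rats at 0.265, 0.392 and 0.406 CPM. They held 46.3% of the wild-type mean by CPM and 34.4% by the authors' TPM. The log2 fold change was -1.11 (SE 0.26, unadjusted p = 0.00226), and it did not pass over 63699 isoforms (edgeR adjusted p = 1). Isoform MSTRG.24458.1, taken to lack those bases, averaged 3.08 ± 0.687 CPM in wild-type and 3.18 ± 0.294 CPM in heterozygous rats (SD, n = 3 each). Which isoform holds the deleted bases was not tested by coordinates.

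As a share of the locus, isoform MSTRG.24458.2 took 48.2, 41.1 and 38.5% of counts in wild-type rats. In heterozygous rats it took 22.1, 26.3 and 26.1%. The means were 42.6 ± 5.01% and 24.9 ± 2.38% (SD, n = 3 each), and the groups did not overlap (two-sided exact permutation p = 0.1, the smallest that 3 against 3 allows). By the authors' isoform percentage the means were 60.3 ± 4.84% and 40.4 ± 3.08%. For the whole locus the means were 5.36 ± 0.767 and 4.20 ± 0.377 CPM, and the difference failed the test (log2 fold change -0.35, SE 0.21, edgeR adjusted p = 0.981). RSEM divides reads over shared exons, so these shares are estimates.

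**Figure D1:**
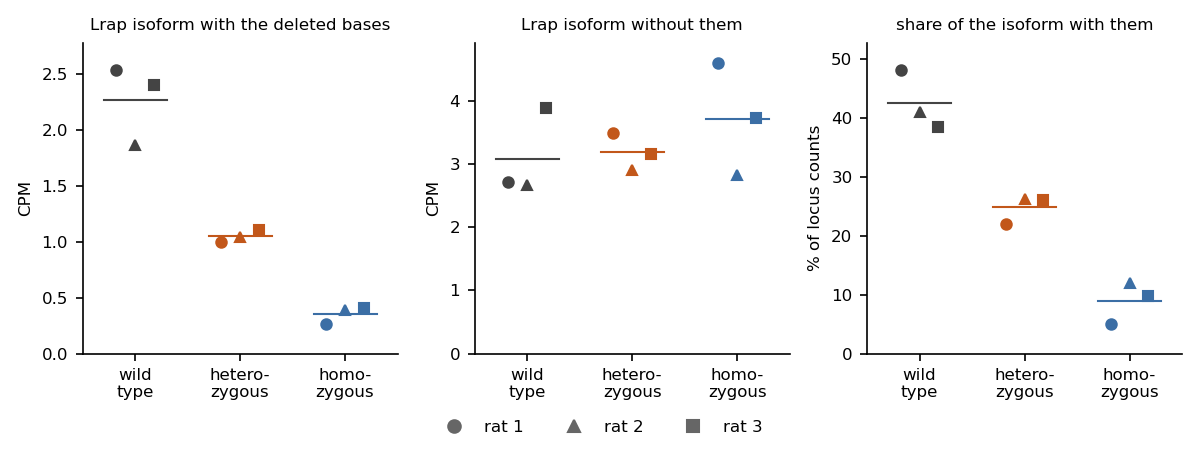
Level of both Lrap isoforms in CPM and the share of locus counts on the isoform taken to hold the deleted bases, for each rat (symbols) with group means (lines). The 3 heterozygous rats sit between 22.1 and 26.3% for the share, below the lowest wild type at 38.5%.

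The 6 libraries held 33803445 to 46975919 expected counts. Several facts of these libraries move with the results below. The abundance pattern of spike-in RNA was alike in wild-type rats 1 and 3 and the heterozygous rats, whereas wild-type rat 2 shared that of the homozygous rats. Wild-type rat 2 had 40.4% of its counts on mitochondrial transcripts, and the other 5 rats 15.1 to 28.1%. With the spike-in pattern as a covariate the median log2 fold change over genes was -0.02, as it was without wild-type rat 2. Among the 6 libraries compared only that rat has the other pattern. The covariate and the removal of that rat are therefore not separate checks, here and below. Scale moved the values as well. Over all tested genes the median log2 fold change was 0.07 by edgeR, whereas the ratio of the authors' mean TPM had a median of -0.29 on the log2 scale. TPM is a share per transcript length, and its 10 highest loci took 64.3 to 71.4% of it in these libraries. By edgeR 64.8% of all genes were higher in heterozygous rats, and 10.2% were by plain TPM ratio. On the TPM scale, list counts and medians below are therefore given relative to that -0.29.

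Only 1 gene passed the test. Among 16576 genes 1 was called at an adjusted p under 0.05 (0.00603%), and among all 39057 loci 3 were (0.00768%). At an unadjusted p under 0.05 there were 353 genes higher in heterozygous rats (2.13%) and 91 lower (0.549%), 2.68% in all. When no gene differs, a valid test gives such a p in a share of 0.05. Of the 353, 199 had all 3 heterozygous rats above all 3 wild types, and of the 91, 53 had all 3 below. Without wild-type rat 3 these counts were 2916 and 301, and the median log2 fold change over genes was 0.25. Without wild-type rat 2 they were 289 and 46, with a median of -0.02.

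Counted over libraries rather than by test, 973 genes had groups that did not overlap (5.87%), 621 higher (3.75%) and 352 lower (2.12%) in all 3 heterozygous rats. Labels drawn at random part 3 rats from 3 with a probability of 0.1, and the share seen does not exceed that. Absence of overlap, here and below, therefore describes values and is no evidence of a difference by itself. On the TPM scale the split was 33 higher and 571 lower of 604. Genes outside the wild-type range on both scales numbered 29 higher and 166 lower. Median log2 fold changes were 0.48 for the 621 and -0.28 for the 352. Of the 621, 68 differed by 2-fold or more, and of the 352, 18.

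LOC685025 was the gene that rose. It lies on the minus strand of chromosome X at 19383844 to 19386581 and was at 0, 0.0521 and 0 CPM in wild types and 1.30, 1.47 and 0.683 CPM in heterozygous rats. The groups were far apart on a low level, with 2 counts over the wild types and 158 over the heterozygotes. The ratio was 69.7-fold with an exact 95% interval of 19.0 to 580 for counting error only. The edgeR log2 fold change was 5.85 (SE 0.75, adjusted p = 0.0167), and homozygous rats, compared with the same wild types, were at 0.796, 1.05 and 0.705 CPM. The call was lost without wild-type rat 1 (edgeR adjusted p = 0.0761), 2 (0.0809) or 3 (0.0567), without heterozygous rat 2 (0.0626), with the spike-in covariate (0.0843), with a minimum of 1 CPM (0.0539) and by limma-voom (0.712). DESeq2 gave the lowest adjusted p of all alternatives (2.06e-04).

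The other called loci carry no gene_name on their strand, and they mirror each other. MSTRG.93883 (chromosome 7, 35623485 to 35626547, minus) was at 1.46, 1.38 and 1.58 CPM in wild types and at 0 counts in each heterozygous rat, at least 65.4-fold lower against a floor of 3 counts over the group (edgeR adjusted p = 0.0028). MSTRG.93889 (35719751 to 35722833, minus), 93.2 kb away, was at 0 in each wild type and at 1.38, 1.88 and 1.42 CPM in heterozygous rats, at least 61.8-fold higher (edgeR adjusted p = 0.0352). Homozygous rats had the wild-type pattern, with 1.5, 1.38 and 1.76 CPM at the first and 0 at the second. The second thus passed the count filter through the heterozygous rats alone. Summed over both loci the level was 1.47 ± 0.1 CPM in wild-type and 1.56 ± 0.276 CPM in heterozygous rats (SD, n = 3 each), a difference smaller than the spread. Their spans are 3063 and 3083 bp, and whether they are copies of 1 sequence was not tested.

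Below the threshold, the highest-ranked genes outside the wild-type range included protein genes and short loci known by a clone name only. Impad1, a Golgi phosphatase, is the name of a locus of chromosome 5 and another of chromosome 17. The first was at 0, 0.156 and 0.226 CPM in wild types and at 1.67, 1.17 and 1.58 CPM in heterozygous rats (log2 fold change 3.49, SE 0.60, edgeR adjusted p = 0.357). The second, with most of the counts, was at 65.0, 57.5 and 92.9 CPM against 65.9, 71.4 and 75.4 CPM (-0.02, SE 0.19). AABR07072283.2, a locus of chromosome 12, was at 3.04, 3.64 and 3.21 CPM against 6.28, 7.35 and 7.41 CPM (1.09, SE 0.19, edgeR adjusted p = 0.357). No heterozygous rat was near the wild-type range at that locus, and homozygous rats were at 7.96, 9.12 and 9.84 CPM. AABR07072025.1 was at 4.55, 5.28 and 3.81 CPM against 9.40, 11.1 and 14.6 CPM (1.36, SE 0.22). AABR07071745.1 (0.91, SE 0.16), AC093937.2 (1.63, SE 0.36) and AABR07029907.3 (0.96, SE 0.22) were higher as well.

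Ppp1r35, a regulator of protein phosphatase, had 0 counts in each wild type and was at 0.176, 0.343 and 0.446 CPM in heterozygous rats, at least 12.4-fold higher. Gh1, growth hormone, was at 0.0512, 0.156 and 0 CPM in wild types and at 2.00, 0.364 and 0.762 CPM in heterozygous rats (3.87, SE 0.82, edgeR adjusted p = 0.942), while no homozygous rat exceeded 0.0442 CPM. Prl, the other main hormone of the anterior pituitary, was too low to be tested, at 0 in each wild type and 0.681, 0.0606 and 0.158 CPM in heterozygous rats. The pituitary markers Pomc, Tshb, Lhb and Cga overlapped between the groups. Their part in the Gh1 result was not tested. AABR07036855.1, a locus of chromosome X, was at 0.23, 0.599 and 0.201 CPM against 4.94, 5.92 and 5.83 CPM (4.01, SE 1.16), and homozygous rats were split at 0.486, 0.164 and 6.64 CPM. Map2k3, a kinase that activates p38, was at 0.435, 1.93 and 0.401 CPM against 1.93, 3.70 and 2.97 CPM, so that the groups met at wild-type rat 2 and heterozygous rat 1 (1.64, SE 0.86).

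Among lower genes the locus named NEWGENE_1311658 ranked first. This locus of chromosome 9, which joins 2 gene names and overlaps the sialidase gene Neu4 on the other strand, was at 14.8, 17.8 and 15.4 CPM in wild types and at 5.27, 6.73 and 8.27 CPM in heterozygous rats (-1.24, SE 0.21, edgeR adjusted p = 0.357). The gap between the groups was wider than the range within either. The locus was lower as a whole, but not each of its isoforms. Isoform MSTRG.108335.1 held 755 counts over the wild types and 847 over the heterozygotes. MSTRG.108335.3, which carries the other gene name, LOC100911516, held 750 and 0. Neu4 itself was at 3.09, 2.34 and 2.93 CPM against 1.52, 1.52 and 3.18 CPM. Hemgn, a nuclear protein of red cell precursors, was at 1.28, 0.495 and 0.501 CPM against 0.0659, 0.141 and 0.473 CPM (-1.80, SE 0.58). A locus named Alas2, the haem synthesis enzyme of red cells, was at 1.97, 2.26 and 2.56 CPM against 0.989, 1.11 and 1.34 CPM (-0.98, SE 0.25), and it overlaps Apex2 on the other strand. The locus of that name with most counts overlapped between the groups, at 1.66, 3.75 and 3.61 CPM against 1.21, 1.68 and 2.78 CPM.

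Zfp709l1 was at 0.921, 3.96 and 2.38 CPM in wild types and at 0 in each heterozygous rat, at least 107-fold lower (unadjusted p = 0.0427). Homozygous rats were at 0, 0 and 4.53 CPM, so values of 0 beside a higher one occurred within that group too. How reads were divided at this locus was not tested. Csmd3, a large membrane protein of neurons, had a small locus at 2.28, 2.97 and 1.30 CPM against 1.14, 1.23 and 0.683 CPM (-1.09, SE 0.36). Its main locus was at 41.2, 46.6 and 41.8 CPM against 40.9, 34.4 and 36.7 CPM (-0.21, SE 0.14). The other lower genes of this rank carry clone names: AABR07049892.1 (-0.94), AABR07048303.1 (-1.22), AABR07070796.1 (-0.78), AABR07017104.2 (-1.53), AABR07039694.1 (-0.92), AABR07042385.1 (-1.13) and AABR07013654.1 (-1.13). The last pair had exactly equal deposited counts, before rounding, in 6 of 9 libraries, so which of them the reads belong to is uncertain.

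**Figure D2:**
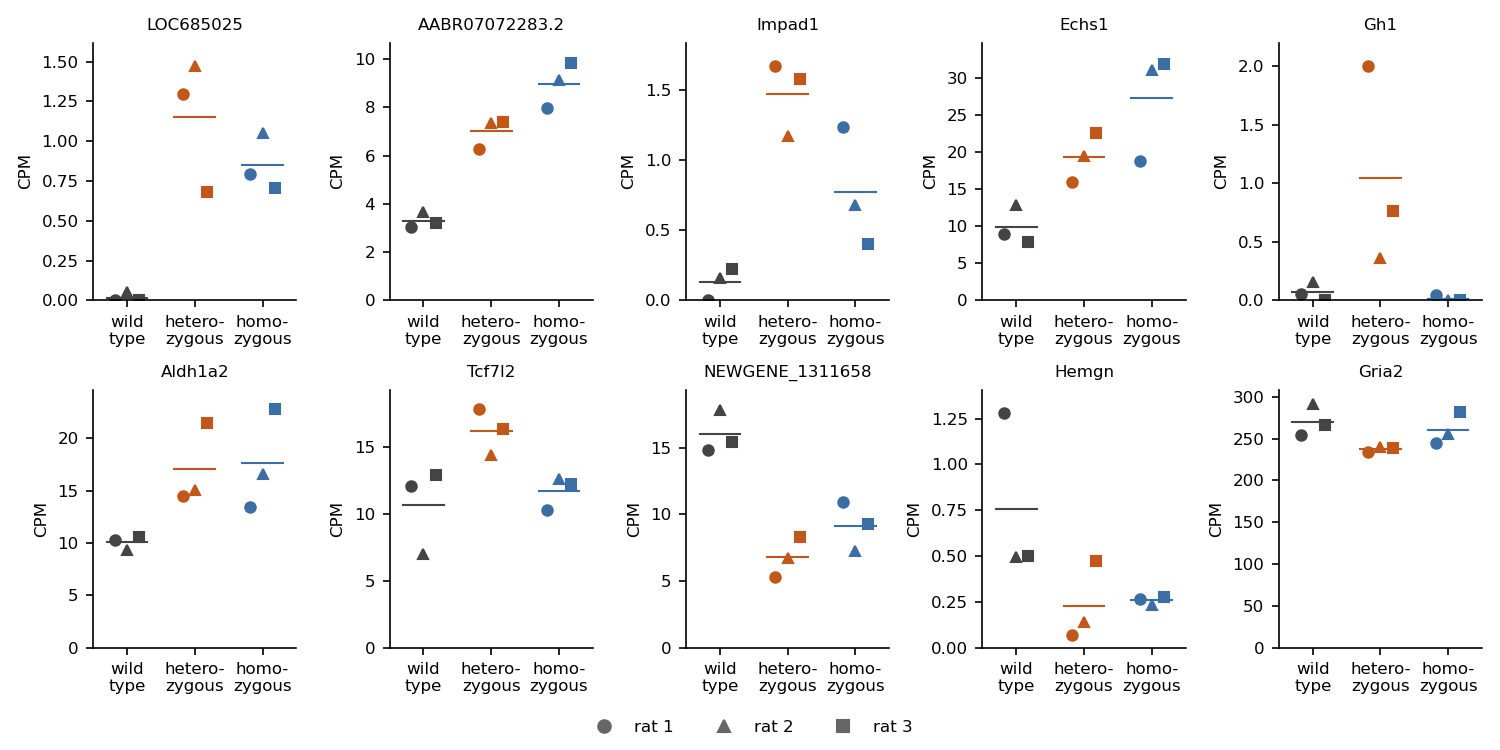
CPM of 10 genes in each rat (symbols) with group means (lines), each axis starting at 0. In LOC685025, AABR07072283.2, Impad1, Echs1, Gh1, Aldh1a2 and Tcf7l2 the 3 heterozygous rats lie above all wild types, and in NEWGENE_1311658, Hemgn and Gria2 below them.

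Genes beside Lrap were compared because some long non-coding RNAs act on their own neighbourhood. Orai1, a store-operated calcium channel, was at 1.23, 0.495 and 1.63 CPM in wild-type and 1.34, 1.25 and 2.07 CPM in heterozygous rats (log2 fold change 0.47, SE 0.39). The other nearest tested genes had 0.05 (SE 0.31) for Morn3, 0.12 (SE 0.21) for the histone demethylase Kdm2b, 0.27 (SE 0.27) for Tmem120b, 0.32 (SE 0.22) for the GTPase Rhof and -0.08 (SE 0.17) for AABR07036331.2. All 6 overlapped between the groups and none passed. Within 1000 kb of Lrap 48 genes were tested, of which 2 had an unadjusted p under 0.05 (4.17%, against 2.68% of all genes) and 5 did not overlap (10.4%, against 5.87%). These differences were not tested.

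On chromosome 12 as a whole 48 of 582 genes did not overlap (8.25%), 39 higher and 9 lower, against 5.87% over all genes. This was the highest share among the autosomes and X. By unadjusted p the share was 3.61%, below the 3.93% of chromosome 13. No test of this difference was made.

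Each gene list below is described by how many members lay on either side and by its median, beside 0.07 over all genes. None of the members of any of the 36 lists was called by edgeR. Overlap is given on the CPM scale unless stated otherwise. On that scale 28 of the 524 tested list genes were above the wild-type range in all 3 heterozygous rats and 4 below it. Over all genes the shares were 3.75% above and 2.12% below, and the difference was not tested. By TPM as deposited only Gh1 of the 28 and Npy2r of the 4 kept that place. On that scale 12 list genes were below the wild-type range and 1 above it. Of 595 symbols in the lists 550 were found and 524 were tested.

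Genes of the pineal gland and of photoreceptors showed the largest median. The pineal gland makes melatonin at night and shares much of its light-sensing machinery with the retina. Of 20 listed genes 18 were found and 8 were tested, all 8 higher in heterozygous rats (median log2 fold change 1.99), and 7 had an unadjusted p under 0.05. This rests on 2 rats. The summed level was 9.18, 13.9 and 14.0 CPM in wild types, 12.9 CPM in heterozygous rat 1, and 118 and 123 CPM in heterozygous rats 2 and 3. Of the 18 found, 17 were higher in heterozygous rats 2 and 3 than in all 7 other libraries, and in 13 of these heterozygous rat 1 was at or below the highest wild type. Of the 8 tested members Chrnb4, a nicotinic receptor subunit, was the 1 that did not overlap, at 0.563, 0.0781 and 0.577 CPM against 0.769, 3.11 and 2.78 CPM (2.44, SE 0.60).

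Tph1, which makes serotonin for melatonin synthesis, was at 0.153, 3.57 and 1.10 CPM in wild types and at 1.10, 90.9 and 92.8 CPM in heterozygous rats. Asmt, the last enzyme of melatonin synthesis, was at 0, 0.0521 and 0.0501 CPM against 0.132, 1.09 and 1.44 CPM, too low to be tested. Crx, a transcription factor of photoreceptors and pinealocytes, had 0 counts in each wild type and was at 0.0220, 0.808 and 0.893 CPM in heterozygous rats. Rbp3, a retinoid carrier outside the list, was at 0, 0.104 and 0.0501 CPM against 0.132, 6.12 and 9.93 CPM (6.63, SE 1.59, edgeR adjusted p = 0.981). Gnb3, a G protein subunit of cones that is not in the list either, was at 0.281, 0.651 and 0.401 CPM against 0.659, 6.71 and 8.75 CPM (3.59, SE 0.76). Pde6g, a phosphodiesterase subunit of rods outside the list, was at 0.230, 0.625 and 0.451 CPM against 0.395, 16.7 and 20.7 CPM. Of the untested members Asmt, Crx and Bsx did not overlap. In heterozygous rat 1 these genes were at the wild-type level or just above it, so a difference of that size was seen in 2 of 3 rats.

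Without heterozygous rat 1, edgeR called 24 loci with 22 gene names, 6 of them of the pineal list (Asmt, Pde6c, Sag, Gngt2, Rom1 and Lhx4). These calls restate what was seen, since that rat is the one without the high levels, and Asmt, Pde6c and Sag were too low to be tested with all 3 rats. The tested members went from 8 to 15, so the count and the list's median gain members only through the high rats. In homozygous rats, set against the same wild types, the summed level was 12.6, 14.6 and 22.4 CPM, and Rbp3 was at 0.403 CPM or less. In bulk tissue a different number of pineal cells and a different amount of RNA per cell cannot be told apart, and the amount of pineal gland in each dissected brain is unstated in the labels.

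Promoters of Crx, Aanat and Rbp3 are shown because CRX and OTX2 are known to bind the letters TAATCC. All 3 genes were higher in heterozygous rats 2 and 3 than in the other libraries. Aanat was too low to be tested, at 0.0256, 0.0521 and 0.1 CPM in wild types against 0.0879, 0.323 and 0.341 CPM. The sequences are the 250 bases before the start site in RefSeq (GRCr8), 5′ to 3′ on the gene's strand, with TAATCC or its reverse complement in capitals. Crx lies at chr1:85681853-85682102 on the minus strand, Aanat, the enzyme that sets the pace of melatonin synthesis, at chr10:102326073-102326322 on the plus strand, and Rbp3 at chr16:9273537-9273786 on the plus strand.
Crx: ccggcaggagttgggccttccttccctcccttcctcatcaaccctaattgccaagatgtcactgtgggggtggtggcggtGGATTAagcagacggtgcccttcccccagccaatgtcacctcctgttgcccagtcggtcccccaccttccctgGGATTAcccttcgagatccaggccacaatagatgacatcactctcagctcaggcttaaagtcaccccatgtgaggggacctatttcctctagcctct
Aanat: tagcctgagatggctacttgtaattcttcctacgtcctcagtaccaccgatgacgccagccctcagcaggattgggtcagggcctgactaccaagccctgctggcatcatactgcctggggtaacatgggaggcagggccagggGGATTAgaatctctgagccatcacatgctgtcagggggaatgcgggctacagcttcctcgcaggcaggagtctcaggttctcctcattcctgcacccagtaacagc
Rbp3: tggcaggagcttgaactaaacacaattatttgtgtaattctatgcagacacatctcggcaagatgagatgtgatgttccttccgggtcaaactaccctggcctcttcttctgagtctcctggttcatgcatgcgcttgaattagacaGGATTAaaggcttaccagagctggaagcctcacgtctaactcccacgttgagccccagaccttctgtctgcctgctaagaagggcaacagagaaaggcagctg
The capitals begin 170 and 97 bases before the start of Crx, 106 before that of Aanat and 103 before that of Rbp3. Of 15 listed pineal genes with a promoter sequence, 4 held TAATCC on either strand (Aanat, Crx, Gngt1 and Opn1sw). The other listed genes did not, whereas the 3 promoters shown all do. Among all 33469 promoters 6.34% held it. The listed genes were counted by gene and the others by promoter, so these shares are not like for like. A match describes the letters only.

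Genes of the meninges, the connective tissue around the brain, were higher as a list and in each heterozygous rat as a sum. The summed level was 206, 226 and 260 CPM in wild types and 283, 298 and 471 CPM in heterozygous rats. Of 16 tested members 15 were higher, with 8 below an unadjusted p of 0.05, and 6 did not overlap, with a median log2 fold change of 0.51. Igfbp6, which binds insulin-like growth factors, was at 1.38, 0.937 and 1.60 CPM against 1.63, 3.25 and 3.86 CPM (1.15, SE 0.32). Aldh1a2, which makes retinoic acid, was at 10.3, 9.29 and 10.6 CPM against 14.5, 15.1 and 21.5 CPM (0.76, SE 0.22).

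Both were highest in heterozygous rat 3, and rat 1 was the closest to wild type. Col3a1, a fibrillar collagen, was at 18.8, 13.5 and 29.2 CPM against 33.3, 29.6 and 58.5 CPM (0.98, SE 0.31), with heterozygous rat 2 just above wild-type rat 3. Slc6a13, a GABA transporter of the meninges, had 0.75 (SE 0.26), Slc22a6 0.68 (SE 0.23) and the growth factor Igf2 0.45 (SE 0.20). Some matrix genes outside the list were named after their values were seen, so they add no support to it. Without overlap by CPM were Fbln1 (0.85, SE 0.22), Bgn (0.72, SE 0.20), Col6a3 (0.95, SE 0.27) and Aebp1 (0.79, SE 0.23). None of them was above the wild-type range on the TPM scale. Ogn, in the locus with most of its counts, was the member that was lower (-0.30, SE 0.34). Dcn and Lum, which define these cells, overlapped (0.33 and 0.37). On the TPM scale 15 of 16 members were above the median of all genes, with a median 0.41 above it, and all 6 that did not overlap by CPM overlapped. Without heterozygous rat 3 the median was 0.37 and 2 members had an unadjusted p under 0.05.

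Blood genes were lower on average and overlapped by CPM. All 9 tested members were lower, with a median log2 fold change of -0.68, and 2 had an unadjusted p under 0.05. Summed levels were 362, 692 and 665 CPM in wild types and 247, 289 and 482 CPM in heterozygous rats, so heterozygous rat 3 was above wild-type rat 1. The haemoglobin gene Hbb was at 129, 357 and 231 CPM against 91.3, 106 and 182 CPM (-0.92, SE 0.34), and Hba-a2, another, at 213, 325 and 425 CPM against 152, 179 and 283 CPM (-0.65, SE 0.26). By TPM both were below the wild-type range in all 3 heterozygous rats, Hbb at 164, 441 and 331 against 83.2, 144 and 140, and Hba-a2 at 333, 480 and 742 against 169, 295 and 263. S100a9, a neutrophil gene, overlapped widely by CPM and was at 5.17, 2.06 and 0.877 CPM against 0.527, 0.606 and 4.89 CPM. Without heterozygous rat 3 the median was -2.15 and 9 of 9 members had an unadjusted p under 0.05. Without heterozygous rat 1 it was -0.38. The red cell genes Hemgn and Alas2 above were lower in the same rats. The part of blood left in the tissue was not tested.

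Immediate early genes, which neurons switch on within minutes of activity, were higher in heterozygous rats 2 and 3 and not in rat 1. Summed levels were 331, 215 and 208 CPM in wild types and 207, 388 and 452 CPM in heterozygous rats. Of 20 members 19 were higher with a median log2 fold change of 0.58, yet 0 had an unadjusted p under 0.05 and 0 were free of overlap. Egr1 was at 39.5, 15.7 and 19.1 CPM against 23.3, 54.0 and 50.4 CPM (0.78, SE 0.38), and Egr4 at 1.23, 0.937 and 0.902 CPM against 0.967, 1.92 and 2.05 CPM (0.68, SE 0.32). Without heterozygous rat 1 the median was 0.89 and 11 members had an unadjusted p under 0.05. Without heterozygous rat 3 it was 0.28. Per1, a clock gene that activity and glucocorticoids also induce, was at 15.5, 9.32 and 15.9 CPM against 13.2, 26.8 and 27.5 CPM (0.73, SE 0.29).

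**Figure D3:**
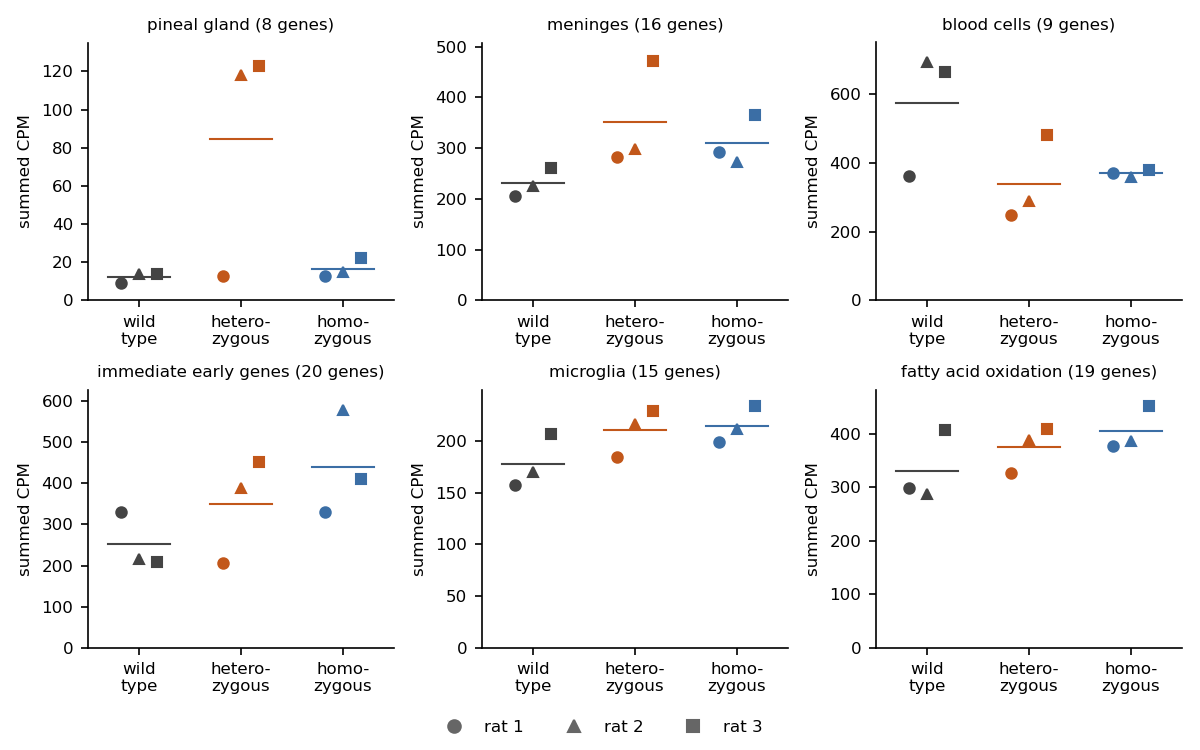
Summed CPM of the tested members of 6 gene lists in each rat (symbols) with group means (lines), each axis starting at 0. Pineal genes are at 118 and 123 CPM in heterozygous rats 2 and 3, while heterozygous rat 1 and the wild types do not exceed 14.0 CPM, whereas meningeal genes are at 283 CPM or more in all 3 heterozygous rats.

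The 3 tested short non-coding RNAs of the list were above the wild-type range in all 3 heterozygous rats. Rn7sl1, which guides secreted proteins to the membrane as part of the signal recognition particle, measured 24300, 11400 and 26100 CPM against 35000, 31000 and 44800 CPM (0.84, SE 0.26). Its counts equal those of AABR07064724.4 in all 9 libraries, so the loci cannot be told apart. Rmrp, the RNA of the ribonuclease MRP, was at 685, 414 and 774 CPM against 918, 985 and 1410 CPM (0.82, SE 0.33) and overlaps Parp2 on the other strand. Terc, the RNA of telomerase, was at 0.742, 0.963 and 1.13 CPM against 1.30, 1.19 and 2.29 CPM (0.74, SE 0.33). Wild-type rat 2, the library apart by spike-ins, was the lowest in Rn7sl1 and Rmrp. Without it the median was 0.60, from 0.82, and 1 of 3 had an unadjusted p under 0.05. On the TPM scale all 3 overlapped between the groups.

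Metabolic lists lay on one side by small amounts. In fatty acid oxidation 19 of 19 genes were higher by edgeR with a median log2 fold change of 0.16, 2 with an unadjusted p under 0.05, and on the TPM scale 16 of 19 were above the median of all genes. Echs1, a mitochondrial hydratase, was at 8.95, 12.9 and 7.80 CPM against 15.9, 19.5 and 22.5 CPM (0.96, SE 0.25, edgeR adjusted p = 0.981). Homozygous rats were at 18.8, 31.0 and 31.9 CPM. Acads, a short-chain dehydrogenase, was at 2.74, 1.48 and 3.91 CPM against 3.93, 4.08 and 4.96 CPM (0.67, SE 0.30). All 12 genes of ethanol and aldehyde metabolism were higher by edgeR, median 0.24, and 11 of 12 were above the median of all genes by TPM. Without wild-type rat 2 their median was 0.09 with 8 of 12 higher. Adh6 was at 0.256, 0.182 and 0.326 CPM against 0.351, 0.465 and 0.552 CPM (0.82, SE 0.45). Without wild-type rat 2 the median of fatty acid oxidation was 0.07 with 14 of 19 higher, against -0.02 over all genes.

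Heat shock genes had 15 of 16 members higher by edgeR, median 0.21, and without wild-type rat 2 had 8 higher and 8 lower, median 0.02. By TPM 10 of 16 were above the median of all genes. Hspa1b was at 1.07, 0.573 and 1.13 CPM against 1.21, 2.79 and 2.42 CPM (1.20, SE 0.38), and Hspb1 at 0.870, 0.338 and 1.75 CPM against 1.27, 3.09 and 3.52 CPM (1.40, SE 0.49). In both, rat 1 was near the wild types. Medians were 0.13 for oxidative phosphorylation, 0.16 for cytosolic ribosomal proteins, 0.12 for cholesterol synthesis and 0.26 for glucocorticoid-responsive genes.

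Glial and vascular lists had medians of 0.13 to 0.28 by edgeR, and by TPM they lay 0.03 to 0.15 above the median of all genes. Microglia had 15 of 15 members higher, median 0.23, which was 0.25 without wild-type rat 2, and by TPM 12 of 15 were above the median of all genes. The complement genes C1qc and C1qb did not overlap by CPM and did by TPM, with C1qc at 2.99, 3.93 and 3.61 CPM against 4.06, 4.99 and 5.99 CPM (0.51, SE 0.22) and C1qb at 7.85, 9.66 and 9.63 CPM against 10.2, 12.5 and 12.2 CPM (0.36, SE 0.17). The third without overlap was Cd68 (0.65, SE 0.34). Cx3cr1, P2ry12 and Tmem119, which define resting microglia, overlapped.

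Endothelial genes were 14 of 14 higher, median 0.14, led by the tight junction gene Cldn5 (0.44, SE 0.20), and without wild-type rat 2 were 8 of 14 higher, median 0.02. Mural cell genes were 11 of 12 higher, median 0.28, and without wild-type rat 2 were 6 of 12 higher, median -0.01. Vtn, vitronectin, did not overlap at 14.5, 13.9 and 19.6 CPM against 21.5, 23.4 and 27.8 CPM (0.60, SE 0.21). The MHC and interferon list had a median of 0.41, with 17 of 18 higher by edgeR and 14 of 18 above the median of all genes by TPM. Tap1 (0.50, SE 0.24) did not overlap and Cd74 (0.57, SE 0.28) overlapped. Without heterozygous rat 3 its median was 0.07. Astrocytes had 12 of 13 higher, median 0.23, led by Aldh1l1 (0.50, SE 0.21) and Glul, glutamine synthetase (0.36, SE 0.16). Oligodendrocytes (0.16) and their precursors (0.13) had 0 members with an unadjusted p under 0.05, and both medians were -0.11 without wild-type rat 2.

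Choroid plexus genes were 13 of 15 lower, median -0.27, and this direction depended on wild-type rat 2. Its summed level was 894 CPM, against 348 and 639 CPM in the other wild types and 426, 546 and 665 CPM in heterozygous rats, and without that rat the median was 0.19 with 10 of 15 higher. The cerebellum list depended on wild-type rat 3, which had a summed level of 2020 CPM beside 576 and 466 CPM in the other wild types and 826 to 1220 CPM in heterozygous rats. Its median was 0.10, and 2.04 without that rat.

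Neuronal lists had medians between -0.05 and 0.15. Median log2 fold changes were 0.00 for GABA-A receptor subunits and striatum, 0.04 for ionotropic glutamate receptors and for opioid and stress peptides, -0.01 for cortical excitatory neurons, -0.05 for hippocampus, 0.15 for GABAergic neurons, with 14 of 15 higher, and -0.02 for neuronal splicing regulators. Without wild-type rat 2 GABAergic neurons had 8 of 15 higher, median 0.04. Within them a few genes did not overlap by CPM. Gria2, a subunit of AMPA receptors, was at 254, 291 and 266 CPM against 234, 240 and 239 CPM (-0.19, SE 0.12), a small difference with tight heterozygous values. Npy2r, a receptor for neuropeptide Y, was at 0.972, 1.07 and 1.35 CPM against 0.703, 0.748 and 0.814 CPM (-0.58, SE 0.31). On the TPM scale Gria2 overlapped and Npy2r did not. Gabra4, Grin2a, Grin2b, Grik1, Grik2, Npy1r and Npy5r overlapped by CPM and were below the wild-type range by TPM. That scale had a median of -0.29 over all genes. Higher without overlap by CPM were Dlx2, a transcription factor of GABAergic neurons, at 0.102, 0.104 and 0.175 CPM against 0.395, 0.303 and 0.184 CPM (1.20, SE 0.50), and Fibcd1 of the hippocampus list (0.34, SE 0.17). Both overlapped by TPM.

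Among region markers the thalamus list had a median of 0.30, which was 0.03 without wild-type rat 2. Tcf7l2, a Wnt pathway transcription factor of the thalamus, was at 12.1, 6.98 and 12.9 CPM in wild types and 17.8, 14.4 and 16.3 CPM in heterozygous rats (0.60, SE 0.22), with homozygous rats at 10.3, 12.6 and 12.2 CPM. Lhx9 overlapped (0.82, SE 0.35). Hypothalamus genes had a median of 0.34, led by Cartpt (0.96, SE 0.45), and without wild-type rat 2 their median was -0.13. Of chromatin genes, Hdac5 (0.45, SE 0.22) and Kdm6b (0.51, SE 0.25) did not overlap on the CPM scale and overlapped on the TPM scale.

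**Figure D4:**
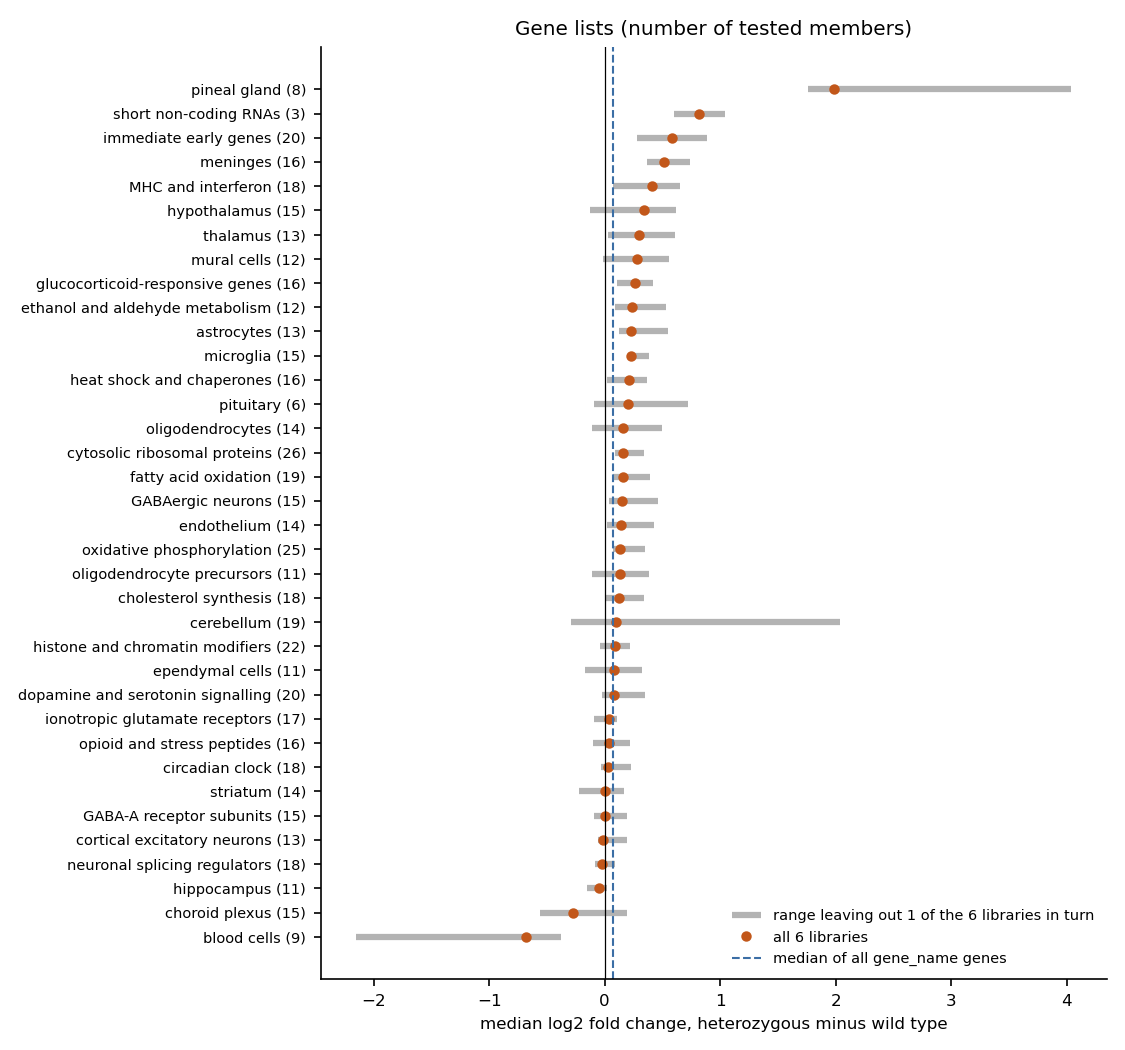
Median log2 fold change of each gene list (points) with the range when 1 of the 6 libraries is left out in turn (grey bars); the dashed line is the median of all genes, 0.07. Pineal, short non-coding and meningeal lists stay to the right and blood to the left, while the cerebellum bar spans -0.29 to 2.04.

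Isoforms were compared next, since the Lrap deletion is taken to lie in 1 isoform of its own locus. Of 63699 isoforms 1 was called (0.00157%), MSTRG.108335.3 of the NEWGENE_1311658 locus, an isoform that carries the other gene name of that locus, LOC100911516. Among the 39056 isoforms of genes the share called was 0.00256%. This isoform was at 5.68, 7.75 and 5.67 CPM in wild types and at 0 in each heterozygous rat, at least 280-fold lower against the floor (edgeR adjusted p = 0.035). It took 39.1, 44.5 and 36.1% of the locus in wild types and 0, 0 and 0.323% in homozygous rats. The edgeR call held without wild-type rat 2 (adjusted p = 0.0416), where 4 isoforms were called. It was lost when any other library was left out, with adjusted p from 0.0576 to 0.277, with the 6 libraries alone (0.109) and by limma-voom (0.979).

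Other isoforms were present in 1 group and absent in the other. Of isoforms of genes 39056 were tested. Among isoforms of genes, 80 had 0 counts in each wild type and counts in all 3 heterozygous rats, 20 of them at 1 CPM or more in each. In reverse, 57 isoforms had 0 counts in each heterozygous rat, 10 of them at 1 CPM or more in each wild type. Such isoforms passed the count filter only through the libraries that hold them. These numbers therefore describe the pattern and are no test of it. Ston2, an endocytic adaptor, had isoform MSTRG.90833.6 at 28.4, 22.7 and 92.3% of locus counts in heterozygous rats and at 0 in wild types, at least 858-fold higher, and homozygous rats were at 50.9, 38.8 and 96.7%. Wnk3, a kinase of ion transporters, had isoform MSTRG.110005.6 at 22.8, 29.1 and 12.6% in wild types and 0 in all heterozygous and homozygous rats, at least 201-fold lower. Both were short of the threshold (edgeR adjusted p = 0.564).

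Others of this kind were MSTRG.80033.3 of Ripk2, a kinase of innate immunity, at 10.8, 25.0 and 14.2% in wild types against 0, and MSTRG.100436.2 of Phldb1 at 13.9, 13.5 and 6.02% against 0. Isoform MSTRG.109738.3 of Tfe3, a lysosomal transcription factor, was at 0, 0 and 0.417% against 7.16, 4.26 and 7.13%. The level of the gene as a whole overlapped between the groups in these 5 loci. Of the 80, 6 were in loci whose own groups did not overlap, and of the 57, 5 were. Among all tested genes the share without overlap was 5.87%, and the difference from it was not tested. A shared read is divided by an estimate that can set an isoform to 0, and 94.5 to 100% of the exon bases of these 5 isoforms lie in another isoform of the locus.

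Isoform usage, the division of a gene's counts over its isoforms, was called in 59 of 8501 genes with edgeR's diffSpliceDGE (0.694%) and in 1 gene with limma's diffSplice (0.0118%). On simulated counts the edgeR method made more false than true calls, so its calls are given as values. Of the 59, 42 had a largest-shift isoform whose share did not overlap, and 1 had an unadjusted p under 0.05 for its level. Over all isoforms of genes with several, 2826 of 31030 shares did not overlap (9.11%), and 882 of these in 608 genes moved by 10 percentage points or more. The 9.11% does not exceed the 0.1 that random labels give for 3 rats against 3.

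Serac1, which remodels phospholipids between mitochondria and the endoplasmic reticulum, was called by both (adjusted p = 0.00807 by edgeR and 0.011 by limma). Isoform MSTRG.1918.7 took 0, 2.58 and 12.7% of its counts in wild-type rats and 19.4, 29.7 and 43.4% in heterozygous rats. All 3 homozygous rats were at 0. Isoforms MSTRG.1918.1, MSTRG.1918.2 and MSTRG.1918.4 have the same counts and were lower, at 7.29, 7.45 and 10.3% each against 6.86, 3.82 and 0.746%. The level of the gene overlapped between the groups (log2 fold change -0.03, SE 0.14). The edgeR call was lost without wild-type rat 1 (adjusted p = 0.144) or 2 (0.111), without heterozygous rat 2 (0.0501), with the 6 libraries alone (0.126) and with the legacy method (0.353).

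Kdm1a, a histone demethylase, had the smallest edgeR p (adjusted p = 2.11e-05, 0.266 by limma). Its isoform MSTRG.84952.1 took 7.17, 6.75 and 2.51% of counts in wild types, a minor part of the gene, and 0 in each heterozygous rat. Tmem178b had a tighter shift: isoform MSTRG.74261.1 took 90.6, 95.1 and 90.6% in wild types and 78.2, 79.5 and 80.1% in heterozygous rats (adjusted p = 0.000988 by edgeR, 0.368 by limma). Homozygous rats lay between, at 88.3, 87.4 and 86.0%. Lcorl, a transcription factor linked to body size, was split over other isoforms. MSTRG.31213.6 was at 18.3, 14.5 and 15.1% against 0, 2.30 and 0%, and MSTRG.31213.10 at 0 against 16.2, 7.55 and 12.9%.

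Pxn, the focal adhesion protein paxillin, had isoform MSTRG.24871.3 at 0 in wild types and at 11.9, 50.6 and 33.3% in heterozygous rats. Isoform MSTRG.24871.1 was at 65.8, 66.6 and 64.9% against 53.1, 22.6 and 35.5%, so both were furthest from wild type in heterozygous rat 2. Ciao1, which builds iron-sulphur proteins, had isoform MSTRG.68865.1 at 55.9, 60.2 and 54.3% against 47.6, 41.8 and 41.2%. Its isoform MSTRG.68865.3 was at 0.0105% or less against 6.41, 14.3 and 11.7%. Huwe1, a ubiquitin ligase, had MSTRG.110062.3 at 11.1, 18.7 and 17.8% in wild types against 0.00624, 4.31 and 0.00264%. Its isoform MSTRG.110062.4 was at 0.0013% or less in wild types against 13.7, 9.66 and 41.6%.

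Celf1, an RNA-binding regulator of splicing, had isoform MSTRG.67116.4 at 3.98, 6.61 and 13% in wild types and at 0.00174% or less in heterozygous rats. In the locus AABR07071891.1 isoform MSTRG.3947.4 was at 0 in wild-type and homozygous rats and at 11.9, 10.5 and 24.9% in heterozygous rats. Trrap, a subunit of histone acetyltransferase complexes, had an edgeR call, and wild-type rat 2 stood apart in its largest-shift isoform. Its isoform MSTRG.23190.5 took 11.6% in that rat and 0 in the other wild types and all heterozygous rats. The groups overlapped in that isoform and in its most abundant one. Among its 11 tested isoforms there was another without overlap.

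**Figure D5:**
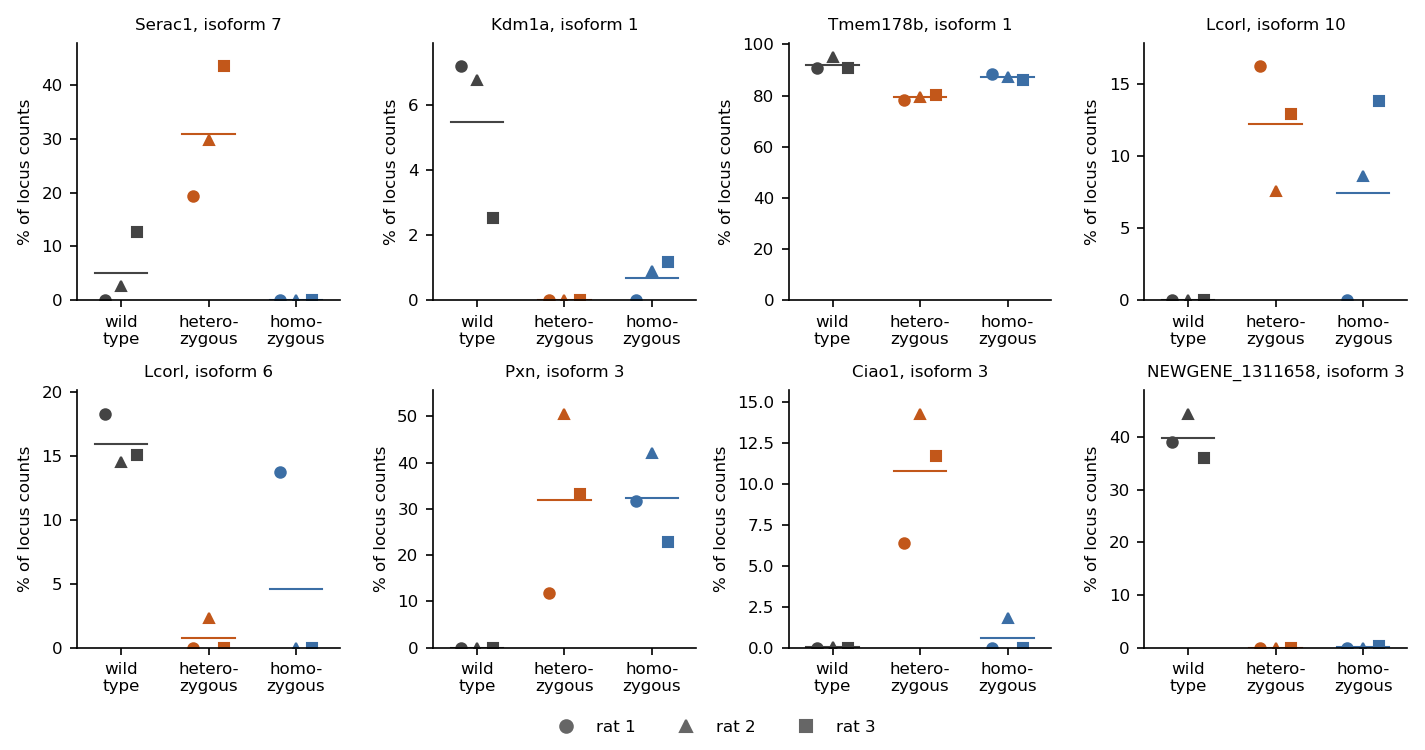
Share of locus counts in percent for 8 isoforms of genes with a usage call, in each rat (symbols) with group means (lines). The 3 heterozygous rats lie outside the wild-type range in all 8, and Serac1 isoform 7 and Ciao1 isoform 3 are at 1.81% or less in every homozygous rat.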

How the data were processed

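Whole-brain RNA of 9 rats was sequenced after ribosomal RNA depletion with a stranded kit, per the labels' protocols. Reads were processed with cutadapt, HISAT2, StringTie and RSEM on rn6, per the submitters' processing notes. Versions, and whether counting used strand, are not given there. Expected counts from RSEM were deposited per locus and isoform, estimated counts with fractions. The authors also deposited TPM and, per the file headers, an isoform percentage (IsoPct), the percent of a locus's TPM on each isoform. The library files and the joint table held the same values.

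Expected counts were rounded. Features were filtered with filterByExpr, scaled by TMM and tested with edgeR 4.0.16 (R 4.3.3) by its robust quasi-likelihood test in 1 fit of all 9 libraries, with Benjamini-Hochberg adjustment over all loci or isoforms at a threshold of 0.05. Isoform usage was tested with diffSpliceDGE (Simes) and, added after the data were seen, with limma 3.58.1 diffSplice. List medians on TPM and the names of genes called under each alternative were also added then. DESeq2 1.42.0 and limma-voom were alternatives. The gene tests of edgeR, DESeq2 and limma-voom, the edgeR isoform test and both usage tests were checked on simulated data. The permutation test and the isoform tests of DESeq2 and limma-voom were not. SE and log2 fold changes are heterozygous minus wild type.

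Named genes were those called, those of smallest p and of largest fold without overlap, 2 per gene list, the nearest to Lrap, and the isoforms and usage calls of smallest p. In lists, a gene_name with several loci is given by the locus with most counts. The comparison and the 36 lists were chosen with earlier results of these data known. Pairs of libraries differed by more than sampling noise. The labels give 1 number per rat, and p-values measure the spread between these rats. Fold bounds use a floor of 3 counts over the group. Counting error alone is covered by these bounds and by intervals.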

Additional observations from a re-analysis of the deposited data

How the results depend on the processing

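The number of genes called by edgeR, 1, was 0 with a minimum of 1 CPM, with the spike-in covariate and by limma-voom, 2 with the 6 libraries alone and 12 by DESeq2, and ranged from 0 to 24 when 1 library was left out. Of isoforms, 1 was called, 0 by limma-voom and 161 by DESeq2, with 0 to 4 when 1 library was left out. Usage calls were 59, and 1 with limma diffSplice, ranging from 37 without heterozygous rat 2 to 116 without wild-type rat 3. Genes without overlap were 973, and 604 on the authors' TPM. With 1 library fewer, which makes overlap rarer, they were 1398 to 6245: 3199 without heterozygous rat 1, 1551 without heterozygous rat 2, 2329, 1900 and 6245 without wild-type rats 1, 2 and 3.

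With the replicate number as a block 2 genes, 0 isoforms and 64 usage calls passed. Deviations of same-numbered rats correlated at 0.161, -0.108 and 0.263, and not every rat correlated best with its own number. Differences that run through a whole library enter these values, so they cannot decide whether the numbers pair the rats. In the block fit AABR07015055.1 was at -0.00.

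Log2 fold changes that turned sign are given here with their range over fits without 1 library, and the cause was not tested. Isl1 ranged from -0.62 to 0.19 (without wild-type rat 3), LOC257642 from -0.87 (without heterozygous rat 3) to 1.41 and AABR07015055.1 from -0.94 (without heterozygous rat 3) to 1.03, with -0.06 by limma-voom. Morn3 ranged from -0.10 to 0.36 and was at -0.03 with the spike-in covariate. Kdm2b ranged from -0.01 to 0.39 and was at -0.01 with that covariate. MSTRG.24458.1 ranged from -0.05 to 0.25. With 3 rats a group and a biological coefficient of variation of 0.277, low genes allow large differences only.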

Other observations

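Some genes of the lists were listed at 0 in all 9 libraries, among them Npy, Rpl8, Rps6, Mt1 and Hspa1a, which brain or all cells are known to express. No level can be given for them. The chromosome X loci LOC685025 and AABR07036855.1 differed in the homozygous rats: the first was at 0.796, 1.05 and 0.705 CPM in them, the second at 0.486, 0.164 and 6.64 CPM.

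Of the 80 isoforms absent from wild types, 22 had counts in all 3 homozygous rats and 9 had none in any. Of the 57 absent from heterozygous rats, 5 had counts in all 3 homozygous rats and 11 had none in any.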
